A study of Arabidopsis thaliana with 12 samples.

Results

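The genes described here are 54 nuclear genes of Arabidopsis thaliana, a small flowering plant, that encode parts of the photosynthetic apparatus. They were taken by locus from the 33602 genes of the deposited table, and fall into 6 classes. The antenna of photosystem I (LHCA) has 6 genes, the antenna of photosystem II (LHCB) 15, photosystem I (PSA) 12, photosystem II (PSB) 10, electron transport 6, and Rubisco with its activase 5. All 54 matched a RefSeq locus and were found in the table, and all 54 passed the filter on low counts that left 21256 genes for testing. The rule used loci and no measured value.

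RNA came from whole seedlings at the germinated seed stage, of wild type (WT, accession Col-0) and of the sr34a-1 mutant, which is affected in SR34A, the gene of a serine/arginine-rich splicing factor. All seeds were stratified and kept on MS medium under continuous white light for 44 h. They then spent 2 h on fresh MS medium alone (mock) or on MS medium with 0.5 µM abscisic acid (ABA), a hormone of seed dormancy and stress. Each genotype under each treatment makes 1 of the 4 groups, with 3 polyA RNA-seq libraries that the labels call biological replicates. The labels name sr34a-1 as the single mutant line, so an effect of SR34A and an effect of that line's background cannot be told apart. The design text names seedling establishment and ABA responses as the questions behind the comparisons.

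In a germinating seed, plastids turn into chloroplasts and the seedling passes from stored oil and protein to photosynthesis. Antenna proteins bind chlorophyll and pass light energy to photosystem II, which splits water, and to photosystem I, which reduces ferredoxin. Rubisco then fixes carbon dioxide, and its small subunit (RBCS) is made from nuclear genes. Most of these genes are switched on by light, and signals from the plastid are known to hold them down while chloroplasts are incomplete.

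Libraries held 61128187 to 83268758 counts. SR34A itself was at 76.6 to 81.6 cRPKM in WT mock and 10.2 to 11.2 in sr34a-1 mock, and at 71.2 to 76.0 in WT ABA and 9.41 to 11.3 in sr34a-1 ABA, so the labels and the targeted gene match. cRPKM is the authors' level of a gene, scaled for sequencing depth and for a length that was not the transcript length in every gene. Genes of reserve use (ICL, MLS and PCK1) summed to 6090 to 9409 cRPKM over the 12 libraries. The first mock library of each genotype stood apart. WT mock 1 was the lowest library of its group for 52 of the 54 genes and sr34a-1 mock 1 for 53, while WT ABA 2 and sr34a-1 ABA 2 were each the highest for 52. Counts of genes called between the genotypes and for ABA are also given without the first mock library of each genotype. Class medians between the genotypes, shares and ratios are given with all 12 libraries.

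The 300 bases from 250 before to 50 after the RefSeq gene start (TAIR10.1) are shown for 4 genes that mark the ends of the responses below. LHB1B1, an LHCB1 gene, had the largest fall in sr34a-1, and LHCB7 was called in neither genotype comparison. RBCS-1B had the largest fall with ABA, and RBCS-3B is a neighbour of it on chromosome 5 that was not called there. Sequences run 5′ to 3′ on the gene's strand, and capitals mark matches to the searched letters.
LHB1B1, chr2:14524357-14524656, plus strand: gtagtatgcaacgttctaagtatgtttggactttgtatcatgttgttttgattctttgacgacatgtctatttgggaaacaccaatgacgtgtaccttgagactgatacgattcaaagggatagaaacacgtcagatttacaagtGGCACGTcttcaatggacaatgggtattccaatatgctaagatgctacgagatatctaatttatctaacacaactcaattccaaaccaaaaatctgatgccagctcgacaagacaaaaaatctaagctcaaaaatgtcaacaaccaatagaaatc
LHCB7, chr1:28728748-28729047, plus strand: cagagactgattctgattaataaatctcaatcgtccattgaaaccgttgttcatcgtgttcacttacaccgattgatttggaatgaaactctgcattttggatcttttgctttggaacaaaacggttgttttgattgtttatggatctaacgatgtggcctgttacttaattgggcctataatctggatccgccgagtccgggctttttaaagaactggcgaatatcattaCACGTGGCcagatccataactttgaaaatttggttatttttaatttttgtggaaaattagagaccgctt
RBCS-1B, chr5:15385271-15385570, minus strand: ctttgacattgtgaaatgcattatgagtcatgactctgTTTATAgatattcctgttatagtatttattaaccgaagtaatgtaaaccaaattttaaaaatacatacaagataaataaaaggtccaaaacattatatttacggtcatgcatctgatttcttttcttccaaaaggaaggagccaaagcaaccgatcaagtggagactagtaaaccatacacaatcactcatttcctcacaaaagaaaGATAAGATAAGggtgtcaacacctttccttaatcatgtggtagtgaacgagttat
RBCS-3B, chr5:15378593-15378892, minus strand: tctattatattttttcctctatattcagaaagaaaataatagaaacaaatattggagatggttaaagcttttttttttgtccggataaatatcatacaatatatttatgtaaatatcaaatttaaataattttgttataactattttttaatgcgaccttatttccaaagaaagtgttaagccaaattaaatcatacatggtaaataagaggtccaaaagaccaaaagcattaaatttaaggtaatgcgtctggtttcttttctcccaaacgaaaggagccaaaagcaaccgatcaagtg
The letters searched on both strands were CACGTG (the G-box), GATAAG (the I-box), CCAATC (an element of GLK factors), ACGTGNC (as in ABA response elements, and able to overlap the G-box) and TATAAA. LHB1B1 holds 1 ACGTGNC match, LHCB7 holds a G-box that overlaps an ACGTGNC match, and RBCS-1B holds 2 overlapping I-boxes and 1 TATAAA. The RBCS-3B window holds none of the 5, which says only that these letters are not in it. These Rubisco windows do not cover equal stretches. The longest run they share, of 18 bases, starts at base 182 of the RBCS-1B window and at base 283 of the RBCS-3B window.

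Over the 54 windows, the G-box was present in 16 (29.6%, against 7.7% of all 27443 gene windows of that length). The I-box was present in 24 (44.4% against 14.6%), CCAATC in 18 (33.3% against 12.3%), ACGTGNC in 21 (38.9% against 10.3%) and TATAAA in 26 (48.1% against 52.1%). Classes held the letters unequally. The G-box was in 6 of 10 photosystem II windows and in 0 of 6 electron transport windows. CCAATC was in 8 of 15 LHCB windows and 1 of 12 photosystem I windows, and the I-box in 8 of 12 photosystem I windows and 4 of 15 LHCB windows. These are counts of letters and not of bound sites, in windows placed by the annotated gene start. Such windows need not cover equal stretches, as the Rubisco windows above show. Whether differences between classes rest on the placement of the windows was not tested.

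These genes were among the most abundant in the seedlings. RBCS-1A ranked 1st of all genes by mean cRPKM, CAB1 4th, RBCS-3B 12th and RCA 17th, while LHCB7 ranked 13292nd. Together the 54 genes took 3.56%, 4.14% and 4.15% of all counts in the WT mock libraries, and 2.24%, 2.73% and 2.77% in the sr34a-1 mock libraries. With ABA they took 3.40%, 4.09% and 3.47% in WT, against 2.26%, 2.49% and 2.24% in sr34a-1. The sr34a-1 libraries lay below all WT libraries in both treatments. CAB1 had at most 97725 counts per library and LHCB4.1, another antenna gene, at most 121662, although CAB1 had the higher mean cRPKM (2613 against 956). These shares of counts therefore need not follow the cRPKM levels. Reads of near-identical copies may be missing from them, which was not tested.

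Nearly all photosynthesis genes were lower in sr34a-1 than in WT, without ABA and with it. Under mock treatment 52 of 54 fell and 0 rose, and with ABA 53 fell and 0 rose, by edgeR's quasi-likelihood test at a Benjamini-Hochberg adjusted p under 0.05 over all genes. Of all genes tested, 7.99% were called lower and 8.42% higher under mock, and 11.0% lower and 11.1% higher with ABA. The median member was at 63.2% of the WT level under mock (log2 fold change −0.66, against 0.01 for all genes) and at 60.6% with ABA (−0.72, against 0.00). In 53 of the 54 genes, every sr34a-1 library was below every WT library, under mock (15.8% of all genes) and with ABA (17.9%). Without the first mock library of each genotype, 51 fell under mock and 53 with ABA. In such whole-seedling RNA, fewer green cells and less RNA per cell cannot be told apart. The comparison under mock and that with ABA share no library, although they come from 1 fit. Their log2 fold changes correlated over the 54 genes (Pearson 0.985, Spearman 0.962, a description across genes).

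**Figure D1:**
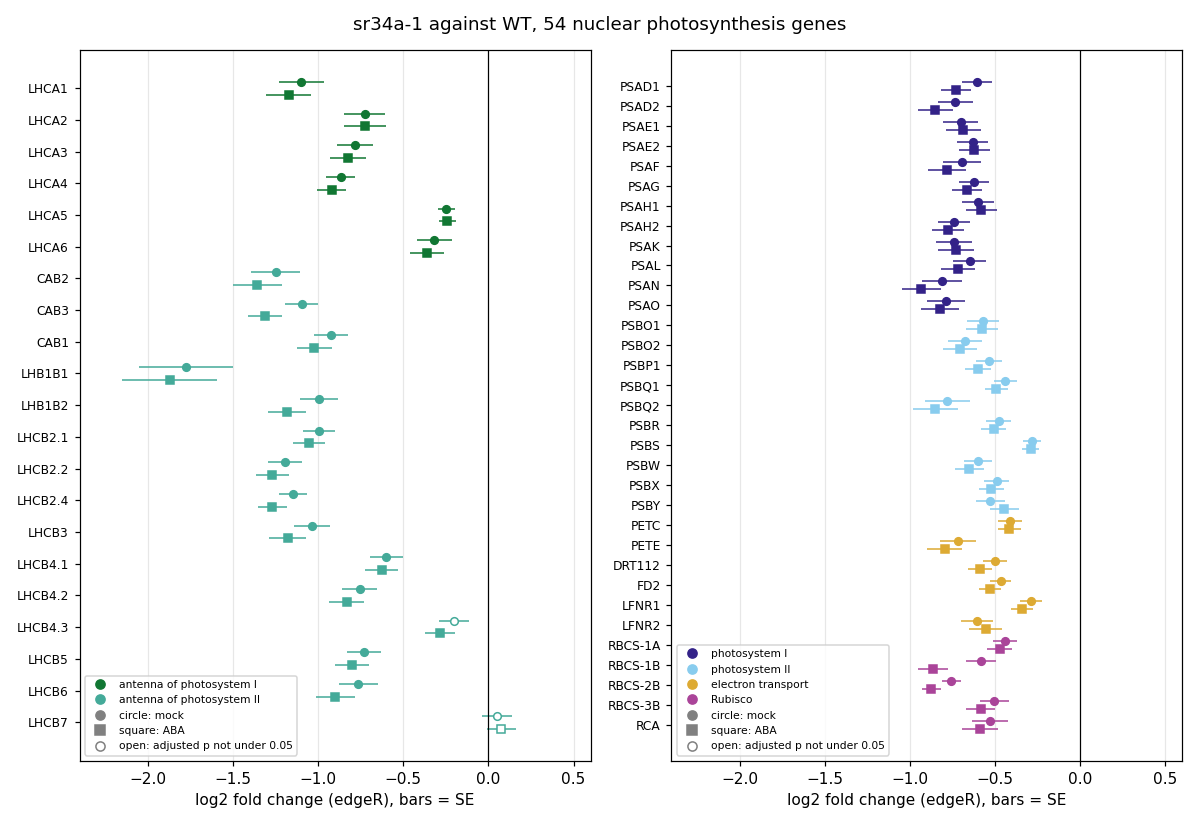
Log2 fold change of sr34a-1 against WT (x axis, bars are standard errors from edgeR) for each of the 54 genes (y axis), under mock (circles) and with ABA (squares). Filled symbols passed the test; LHB1B1 lies farthest left at −1.78 and −1.87, and LHCB7 lies at 0.05 and 0.08.

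The antenna of photosystem II fell the most of the 6 classes by its median. Its 15 genes had a median log2 fold change of −0.995 under mock (13 lower) and −1.05 with ABA (14 lower). LHCB1 and LHCB2 with LHCB3 form the trimers that carry a large share of the plant's chlorophyll. The 5 LHCB1 genes had medians of −1.10 and −1.31, and the 4 LHCB2 and LHCB3 genes −1.09 and −1.22, all called lower in both treatments. The antenna proteins that bind as monomers near the core, LHCB4.1, LHCB4.2, LHCB5 and LHCB6, had medians of −0.74 and −0.82 and were also all called.

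LHB1B1 (AT2G34430, chromosome 2, 14524607 to 14525918, plus strand, 1 exon) fell the furthest. Its level was 176, 310.0 and 310.4 cRPKM in the WT mock libraries and 44.2, 93.3 and 94.8 in sr34a-1 mock. In the ABA groups it was 165, 279 and 206 in WT, against 48.6, 73.4 and 57.0 in sr34a-1. The groups did not overlap in either treatment, and the first mock library was the lowest in both genotypes. The log2 fold change was −1.78 ± 0.28 (SE, n = 3 against 3) under mock (edgeR, adjusted p = 0.000699) and −1.87 ± 0.28 with ABA (edgeR, adjusted p = 0.000345).

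CAB1 (AT1G29930), the most abundant antenna gene, also encodes LHCB1. It was at 3166, 3938 and 3609 cRPKM in WT mock and 1589.7, 1983 and 2079 in sr34a-1 mock. In the ABA groups it was at 3039.6, 3823 and 3154 in WT, against 1617, 1728 and 1626 in sr34a-1. Every sr34a-1 library was below every WT library, and the log2 fold changes were −0.92 ± 0.10 under mock (edgeR, adjusted p = 5.57e-05) and −1.02 ± 0.10 with ABA (edgeR, adjusted p = 2.19e-05).

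The antenna of photosystem I had a median log2 fold change of −0.75 under mock and −0.77 with ABA, with all 6 genes lower in both. LHCA4, which pairs with LHCA1 in the antenna belt, had the highest mean level of the class. Its level was 789, 939 and 934 cRPKM in WT mock and 425, 508 and 528 in sr34a-1 mock. After ABA the values were 748, 872 and 749 in WT, against 417, 446 and 398 in sr34a-1. The genotypes did not overlap, and the log2 fold changes were −0.87 ± 0.09 (edgeR, adjusted p = 2.67e-05) and −0.92 ± 0.09 (edgeR, adjusted p = 1.43e-05). LHCA1 fell the most in the class, to 46.7% of WT under mock and 44.3% with ABA.

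The 4 antenna genes with the lowest levels had the smallest differences. LHCA5 and LHCA6, which link photosystem I to the NDH complex, LHCB4.3 and LHCB7 had mean levels from 6.01 to 87.8 cRPKM, and their median log2 fold change was −0.22 under mock and −0.26 with ABA. LHCB7 had 365 to 511 counts per library and lay between 5.28 and 6.95 cRPKM in all 12 libraries. Its log2 fold change was 0.05 ± 0.09 under mock (edgeR, adjusted p = 0.741) and 0.08 ± 0.09 with ABA (edgeR, adjusted p = 0.575). LHCB4.3 was at −0.20 ± 0.09 under mock, which was not called (edgeR, adjusted p = 0.135) but was with the replicate number as a block (edgeR, adjusted p = 0.0296). With ABA it fell by 0.28 on the log2 scale (edgeR, adjusted p = 0.0332), a call lost without WT ABA 2, sr34a-1 ABA 1 or sr34a-1 ABA 3.

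The 12 photosystem I genes all fell in both treatments, within a narrow band from −0.60 to −0.81 under mock and −0.58 to −0.93 with ABA (medians −0.70 and −0.73). PSAN, a subunit on the plastocyanin side, fell the most, and PSAH1 the least in both treatments. PSAG, a membrane subunit next to the antenna belt, had the highest mean level. It was at 867, 1025 and 1026 cRPKM in WT mock and 550.5, 669 and 675 in sr34a-1 mock. After ABA the levels were 845, 1023 and 866 in WT, against 566, 622 and 547 in sr34a-1. The genotypes did not overlap, and the log2 fold changes were −0.62 ± 0.09 (edgeR, adjusted p = 0.00039) and −0.67 ± 0.09 (edgeR, adjusted p = 0.000154).

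The 10 photosystem II genes all fell, with smaller medians of −0.53 under mock and −0.55 with ABA. The 5 genes for the extrinsic proteins at the water-splitting cluster (PSBO1, PSBO2, PSBP1, PSBQ1 and PSBQ2) had medians of −0.57 and −0.60. PSBO1, the most abundant of the class, was at 1195, 1432 and 1384 cRPKM in WT mock and 762, 973 and 965 in sr34a-1 mock. The ABA libraries held 1131, 1384 and 1165 in WT, against 804, 884 and 799.9 in sr34a-1. Groups did not overlap, and the log2 fold changes were −0.57 ± 0.10 (edgeR, adjusted p = 0.00104) and −0.58 ± 0.10 (edgeR, adjusted p = 0.000687). PSBS, which sheds excess light energy as heat, fell the least of the class, by 0.28 and 0.29 on the log2 scale, to 82.1% and 81.8% of WT.

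Electron transport genes fell by a median of 0.48 under mock and by 0.54 with ABA on the log2 scale, and all 6 were called in both treatments. PETE, the minor plastocyanin gene, fell the most in both (−0.72 and −0.80), against −0.50 and −0.59 for the major one, DRT112. LFNR1, a ferredoxin-NADP reductase gene, fell the least (−0.29 and −0.34). FD2, the main leaf ferredoxin, was at 1188, 1258 and 1286 cRPKM in WT mock and 822, 951 and 928 in sr34a-1 mock. The ABA libraries held 1244, 1414 and 1241 in WT, against 883, 965 and 872 in sr34a-1. Groups did not overlap, and the log2 fold changes were −0.47 ± 0.06 (edgeR, adjusted p = 0.000306) and −0.53 ± 0.06 (edgeR, adjusted p = 7.68e-05).

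The Rubisco class had medians of −0.53 and −0.59, with all 5 genes called lower in both treatments. RBCS-1A, the most abundant transcript of all, was at 7494, 8273 and 8346 cRPKM in WT mock and 5270.1, 6225 and 6266 in sr34a-1 mock. The ABA libraries held 7620.3, 8911 and 7669.8 in WT, against 5709, 6099 and 5767 in sr34a-1. It had the smallest fall of the class, −0.44 ± 0.07 under mock (edgeR, adjusted p = 0.000994) and −0.47 ± 0.07 with ABA (edgeR, adjusted p = 0.00043). RCA, the activase that clears inhibitors from Rubisco, was at 1542, 1885 and 1800.5 cRPKM in WT mock and 1017, 1300.1 and 1309.8 in sr34a-1 mock. Its ABA libraries held 1429.8, 1782 and 1457 in WT, against 984, 1158 and 983 in sr34a-1, again without overlap. Its log2 fold changes were −0.53 ± 0.11 (edgeR, adjusted p = 0.00383) and −0.59 ± 0.11 (edgeR, adjusted p = 0.00131).

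**Figure D2:**
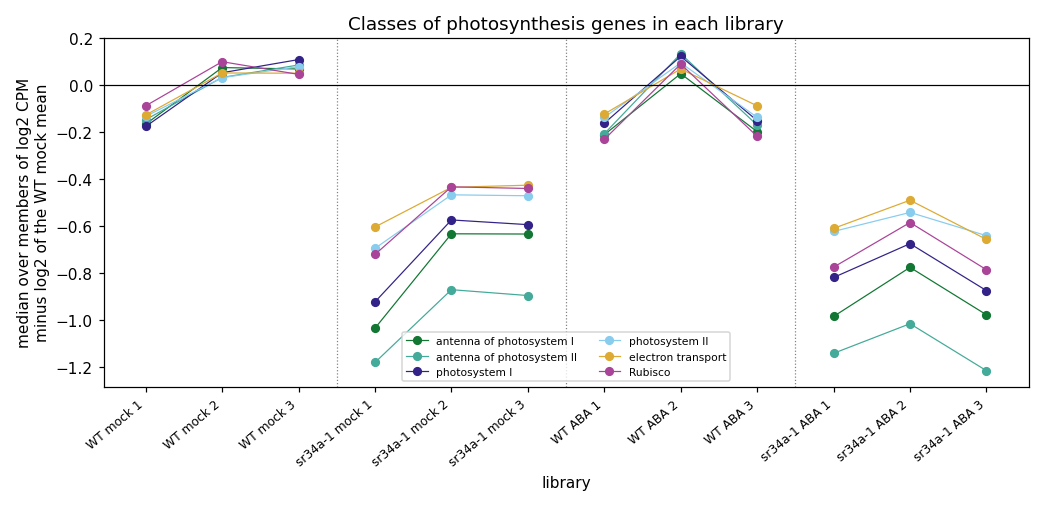
Median over the genes of each class of log2 CPM minus the log2 of the WT mock mean (y axis) in each of the 12 libraries (x axis), lines joining libraries of a group. The antenna of photosystem II is the lowest class in every sr34a-1 library, and both first mock libraries lie below the other libraries of their group.

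The balance between antenna and core differed between the genotypes. The summed cRPKM of the LHCB genes was 1.58, 1.66 and 1.62 times that of the photosystem II genes in WT mock and 1.14, 1.26 and 1.24 times in sr34a-1 mock. With ABA the ratio was 1.52, 1.65 and 1.54 in WT, against 1.09, 1.15 and 1.11 in sr34a-1. For LHCA against photosystem I it was 0.453, 0.474 and 0.454 in WT mock and 0.407, 0.420 and 0.417 in sr34a-1 mock. That ratio was 0.436, 0.439 and 0.435 in WT ABA, and 0.393, 0.405 and 0.401 in sr34a-1 ABA. Both ratios were lower in every sr34a-1 library than in every WT library of the same treatment. These are descriptions of sums, and the difference between classes was not tested.

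Copies of some families differed in their share of the family's summed cRPKM between the genotypes. Of 29 copies in 11 families, 21 had shares that did not overlap between the genotypes in either treatment, 11 higher and 10 lower in sr34a-1, where in a family of 2 copies each share mirrors the other. Shares within any family depend on each other, so the 21 are not separate observations. No such count was made for other gene families, and the shares were not tested. Shares overlapped in both treatments for 3 copies (LHB1B2, PSAE1 and PSAE2) and in 1 treatment for 5. LHB1B1 made up 3.79% ± 0.79 (SD, n = 3) of the LHCB1 level in WT mock and 2.23% ± 0.56 in sr34a-1 mock. CAB1 made up 51.7% ± 1.3 in WT mock and 55.6% ± 1.1 in sr34a-1 mock, and 51.9% ± 0.19 and 56.8% ± 2.0 with ABA. PSBQ2 made up 27.5% ± 1.8 of the PSBQ level in WT mock and 23.0% ± 1.7 in sr34a-1 mock, and LFNR2 made up 43.7% ± 1.5 and 38.5% ± 1.5 of the LFNR level. These 4 were picked from the 21 after their values were seen.

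Near-identical copies limit such shares. CAB1, CAB2 and CAB3, which lie side by side on chromosome 1, are 95.6% to 96.4% identical in coding sequence, and LHB1B1 is 92.5% identical to LHB1B2. Of the 54 genes, 30 share no run of 50 bases with the transcript of another gene. More than 20% of such runs are shared in 10, among them all of LHB1B2, which overlaps the loci AT2G34410 and AT2G08665, 58.8% of PSAG, 22.0% of CAB1, 21.4% of RBCS-2B and 20.5% of CAB2. For LHB1B1 the figure is 13.7%. The sources used here do not give the strand setting of the counting, and 19 of the 54 genes overlap another gene, so the values of these genes are uncertain.

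The rest of the pathway moved the same way by smaller medians. Of 20 further genes for thylakoid proteins and the Calvin cycle, 17 fell under mock (median log2 fold change −0.38) and 19 with ABA (−0.39), and 0 rose. By group, 5 of 6 thylakoid genes fell in both treatments, and 12 of 14 Calvin cycle genes fell under mock and 14 with ABA. The largest fall was that of GAPA2, a chloroplast glyceraldehyde phosphate dehydrogenase (−0.66 and −0.68). FD1, the minor ferredoxin of leaves, was not called in either treatment (0.11, edgeR, adjusted p = 0.264, and −0.10, edgeR, adjusted p = 0.298). In these seedlings its mean level over the 12 libraries was above that of FD2 (1583 against 1088 cRPKM).

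Seed genes moved with the genotype as well. All 6 dry seed markers (storage proteins, an oleosin and EM proteins) rose in sr34a-1 in both treatments, by a median of 1.19 under mock and 1.198 with ABA on the log2 scale. Their summed level was 96.5 to 145 cRPKM in WT mock, 246 to 313 in sr34a-1 mock, 488 to 564 in WT ABA and 1027 to 1416 in sr34a-1 ABA, with no marker at 0. Of the 3 reserve-use genes, 3 rose under mock and 2 with ABA, and their sums were 6090 to 7166, 8133 to 9245, 6732 to 7564 and 8656 to 9409 cRPKM in the same order. Of 6 root markers, 4 rose and 0 fell under mock, and 1 rose and 2 (CASP1 and CASP2) fell with ABA. Their sums were 191 to 204, 219 to 227, 187 to 199.8 and 188 to 206 cRPKM. The dry seed markers also responded to ABA: 5 of the 6 rose with ABA in each genotype (median over the 6 of 1.73 in WT and 1.85 in sr34a-1). Of the 5 genes fixed as a check of the ABA treatment, 2 were higher and 0 lower in sr34a-1, under mock and with ABA. The rise of the dry seed markers in sr34a-1 is therefore not a reading of seed stage alone. The part of seedling stage or tissue make-up in the photosynthesis result was not tested.

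Few of these genes were called for ABA against mock after 2 h. In WT, 1 rose and 2 fell (median log2 fold change −0.07 over the 54), and in sr34a-1, 1 rose and 7 fell (median −0.12), by edgeR's quasi-likelihood test. Of all genes tested, 18.2% rose and 17.0% fell in WT, and 19.4% rose and 20.7% fell in sr34a-1. The 5 genes fixed as a check of the treatment changed in both genotypes, 4 upward (RAB18 among them) and PYL6 downward. Both counts of falls moved when single libraries were left out, from 2 to 6 in WT and from 2 to 19 in sr34a-1, so no fall was lost in WT. Leaving out the first mock library of each genotype, an alternative added after the data were seen, gave 13 falls in WT and 30 in sr34a-1, with medians of −0.13 and −0.21. Those libraries were the lowest of their mock groups for most of the 54, so leaving them out raises the mock side. Low ABA libraries were kept there: WT ABA 1 was the lowest of its group for 44 of the 54 and sr34a-1 ABA 3 for 36. Over all alternatives the median ran from −0.17 to −0.014 in WT and from −0.21 to −0.051 in sr34a-1.

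In WT, 4 genes fell without WT mock 1 and 6 without WT ABA 2. In sr34a-1, 19 fell without sr34a-1 mock 1. The count was 2 without sr34a-1 mock 2, sr34a-1 mock 3 or sr34a-1 ABA 3, 3 without sr34a-1 ABA 1, and 4 without WT mock 2, WT mock 3 or WT ABA 3. In the comparison without both first mock libraries, the 30 falls in sr34a-1 comprised 11 of 15 LHCB genes, 4 of 6 LHCA genes, 6 of 12 photosystem I genes, 3 of 10 photosystem II genes, 3 of 6 electron transport genes and 3 of 5 Rubisco genes.

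**Figure D3:**
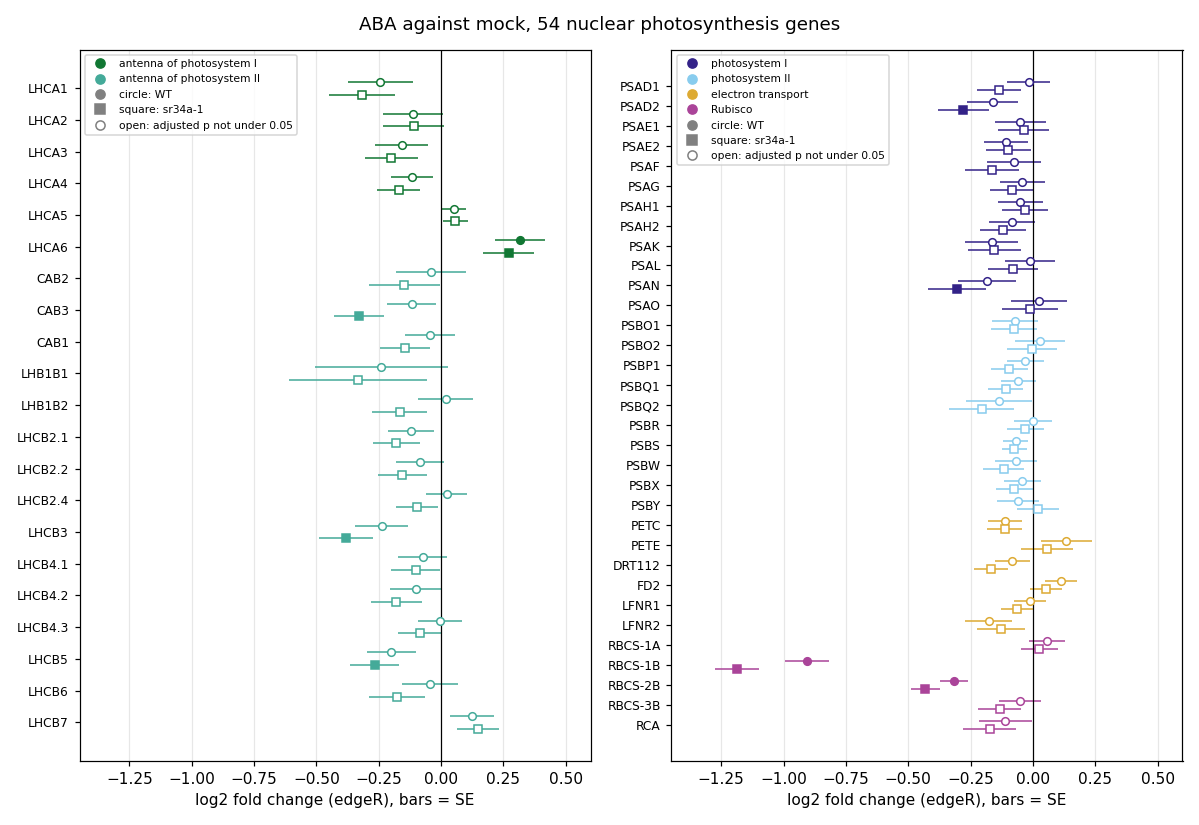
Log2 fold change of ABA against mock (x axis, bars are standard errors from edgeR) for each of the 54 genes (y axis), in WT (circles) and sr34a-1 (squares). Filled symbols passed the test; RBCS-1B lies farthest left at −0.91 and −1.19, and LHCA6 farthest right at 0.32 and 0.27.

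The clearest response to ABA was in the Rubisco small subunit family, and in part of it. RBCS-1B (AT5G38430, chromosome 5, 15383167 to 15385320, minus strand) was at 690.0, 801 and 679.7 cRPKM in WT mock and 395, 384 and 338 in WT ABA. In sr34a-1 it was at 419, 501 and 529.8 under mock and 211, 219.7 and 187 with ABA. Groups did not overlap in either genotype. The log2 fold change with ABA was −0.91 ± 0.09 in WT (edgeR, adjusted p = 1.2e-06) and −1.19 ± 0.09 in sr34a-1 (edgeR, adjusted p = 6.02e-08).

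RBCS-2B, the next gene along the chromosome, fell with ABA by 0.32 ± 0.06 in WT (edgeR, adjusted p = 0.000432) and by 0.43 ± 0.06 in sr34a-1 (edgeR, adjusted p = 2.47e-05), on the log2 scale. RBCS-3B was not called in WT (−0.05, edgeR, adjusted p = 0.682) or in sr34a-1 (−0.13, edgeR, adjusted p = 0.237). RBCS-1A, on chromosome 1, was not called either (0.06, edgeR, adjusted p = 0.59, and 0.03, edgeR, adjusted p = 0.806). The share of RBCS-1B in the family's summed cRPKM went from 6.60% ± 0.55 (SD, n = 3) under mock to 3.58% ± 0.37 with ABA in WT, and from 6.09% ± 0.20 to 2.79% ± 0.18 in sr34a-1. That of RBCS-1A went from 73.3% ± 0.33 to 77.2% ± 0.34 in WT and from 74.7% ± 0.19 to 79.3% ± 0.36 in sr34a-1. RBCS-1B, RBCS-2B and RBCS-3B are 96.7% to 97.3% identical in coding sequence, and 14.0% of the 50-base runs of RBCS-1B occur in another gene's transcript. Reads from such runs cannot be placed by sequence alone, and how they were counted is not given in the sources used here.

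**Figure D4:**
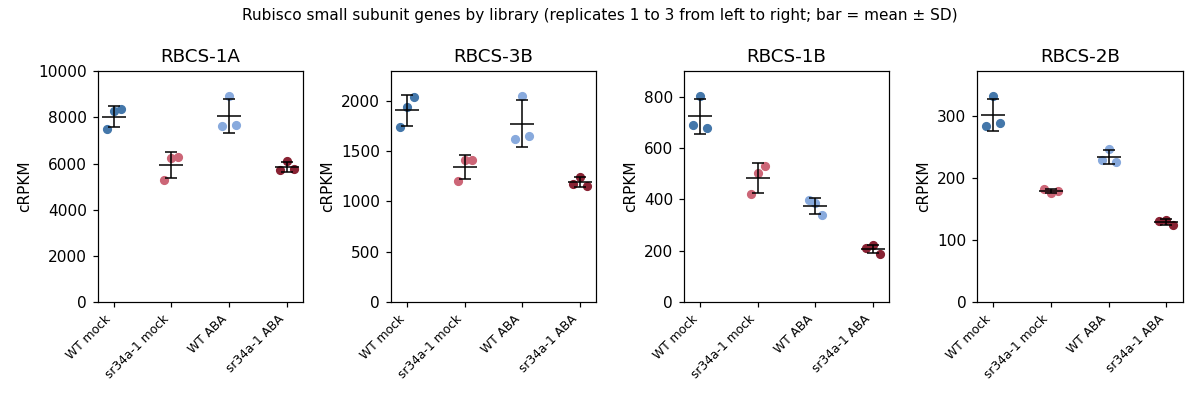
Level in cRPKM (y axis, from 0) of the 4 Rubisco small subunit genes in the 3 libraries of each group (x axis), with the mean and SD. RBCS-1B falls from a mean of 724 to 373 with ABA in WT and from 483 to 206 in sr34a-1, while RBCS-1A has overlapping mock and ABA libraries in each genotype.

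LHCA6 (AT1G19150) was the gene that rose with ABA in either genotype. It was at 50.4, 55.6 and 59.1 cRPKM in WT mock and 62.4, 71.6 and 64.5 in WT ABA, which do not overlap. In sr34a-1 it was at 35.8, 49.4 and 47.5 under mock and 47.3, 57.3 and 51.0 with ABA, which do. The rise was 0.32 ± 0.10 in WT (edgeR, adjusted p = 0.0246) and 0.27 ± 0.10 in sr34a-1 (edgeR, adjusted p = 0.0466). The call was lost in WT without WT mock 1, WT mock 2 or WT ABA 2, and in sr34a-1 without sr34a-1 mock 1, sr34a-1 ABA 2 or sr34a-1 ABA 3. LHCA6 was also lower in sr34a-1 than in WT under mock (−0.32 ± 0.10, edgeR, adjusted p = 0.0469) and with ABA (−0.36 ± 0.10, edgeR, adjusted p = 0.0195). The call under mock was lost without WT mock 2, WT mock 3, sr34a-1 mock 1, WT ABA 3 or sr34a-1 ABA 3, and that with ABA without WT ABA 2, sr34a-1 ABA 1 or sr34a-1 ABA 3.

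Beyond the Rubisco genes, the falls called with ABA in sr34a-1 were those of LHCB3 (−0.38), CAB3 (−0.33), PSAN (−0.31), PSAD2 (−0.28) and LHCB5 (−0.27). Each of these 5 calls was lost in 3 to 10 of the alternatives tried, and all 5 were lost without sr34a-1 mock 2, sr34a-1 mock 3 or sr34a-1 ABA 3. Among the further pathway genes, 1 rose with ABA in WT (FD1, 0.23, edgeR, adjusted p = 0.0116) and 0 fell. In sr34a-1, 0 rose and 1 fell, AT2G26500 (−0.22, edgeR, adjusted p = 0.0308).

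The response to ABA was not shown to differ between the genotypes for any of the 54 genes. The interaction of genotype and ABA called 0 of them and 0 of all 21256 genes with edgeR's quasi-likelihood test. Before adjustment, 1374 of all genes passed 0.05, among them 1 of the 54, RBCS-1B. DESeq2 called 35 of all genes and 0 of the 54, and edgeR with the replicate number as a block called 74 of all genes and 0 of the 54. The interaction was below 0 in 45 of the 54 (median −0.06 on the log2 scale) and in 11589 of all genes. That direction turned on single libraries: 11 of the 54 were below 0 without WT ABA 2 (median 0.03), 25 without WT mock 1 (0.008) and 26 without sr34a-1 mock 3 (0.004). The adjusted p-values of the 54 lay between 0.757 and 0.999 (edgeR).

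Splicing was read in the same genes because the mutated gene encodes a splicing factor. Of the 54 genes, 41 had events in the deposited table, 436 in all once the first of each set of alternative sites was left out. Of these, 407 had at least 10 reads in every library, and 388 of those were spliced nearly one way throughout (mean percent spliced in, PSI, below 2 or above 98). Introns were removed almost fully: 88 of 98 had a mean PSI below 2, with a median of 0.35. The 19 events left for testing lay in 6 genes: LHCB7, LFNR2, LHCA4, RCA, LHCB2.4 and PSBQ1. Alternative sites of the same gene can mirror each other, so the 19 are not all separate readings.

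In RCA the last intron can start at either of 2 donor sites 11 bases apart, known to give a long and a short activase in Arabidopsis. The stretch around them is shown because it carries the alternative site with the most reads among the tested events of these genes, with the bases added by the downstream donor in capitals.
RCA, chr2:16571172-16571200, minus strand: actttctacgGTAAAACAGAGgtttgaaa
The downstream donor took 36.0% ± 1.1 of reads (SD, n = 3) in WT mock, 38.1% ± 1.3 in sr34a-1 mock, 37.2% ± 1.4 in WT ABA and 37.8% ± 0.68 in sr34a-1 ABA, on at least 18981 reads per library. Neither genotype comparison was called (limma, adjusted p = 0.427 under mock and 0.868 with ABA). The retained last intron of RCA, at a PSI of 18.9 to 21.4, overlaps this choice and is not a separate reading.

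With ABA, 1 of the 19 events was called between the genotypes, where 0.793% of all 27995 events tested were. It was an intron of 117 bases in LFNR2 (chr1:6944047-6944163, plus strand), shown at its ends with the first and last intron bases in capitals.
LFNR2 donor end, chr1:6944037-6944066: cgttattatgGTctctcccttaaacctcaa
LFNR2 acceptor end, chr1:6944144-6944173: cttcttcatgaacaccacAGcttgccacag
Its PSI was 1.88 ± 0.17 in WT ABA and 3.75 ± 0.18 in sr34a-1 ABA (SD, n = 3), without overlap, on 1198 to 2939 reads per library (limma, adjusted p = 0.0159). Under mock it was 2.52 ± 0.41 and 3.56 ± 0.33, also without overlap, but was not called (limma, adjusted p = 0.527). The call with ABA was lost without WT ABA 3 (limma, adjusted p = 0.0687) or sr34a-1 ABA 1 (limma, adjusted p = 0.0629).

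Under mock, 0 of the 19 events were called between genotypes by limma (4 at an unadjusted p under 0.05; 0.529% of all events called). ABA against mock called 0 in WT (2 unadjusted; 0.0179% of all) and 0 in sr34a-1 (3 unadjusted; 0.0286% of all). The smallest adjusted p-values by limma were 0.412, 0.669 and 0.667. The 0.669 belongs to acceptor sites of LHCB7 with equal and opposite changes, and the 0.667 to mirrored sites of LHCA4 (limma). The unadjusted counts for ABA can therefore hold 1 reading more than once. LHCB7 carried 8 of the 19 events on only 50 to 173 reads per library. Its intron of 168 bases had the smallest adjusted p under mock, at a PSI of 30.7 ± 4.1 (SD, n = 3) in WT and 44.1 ± 7.9 in sr34a-1 (limma, adjusted p = 0.412).

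**Figure D5:**
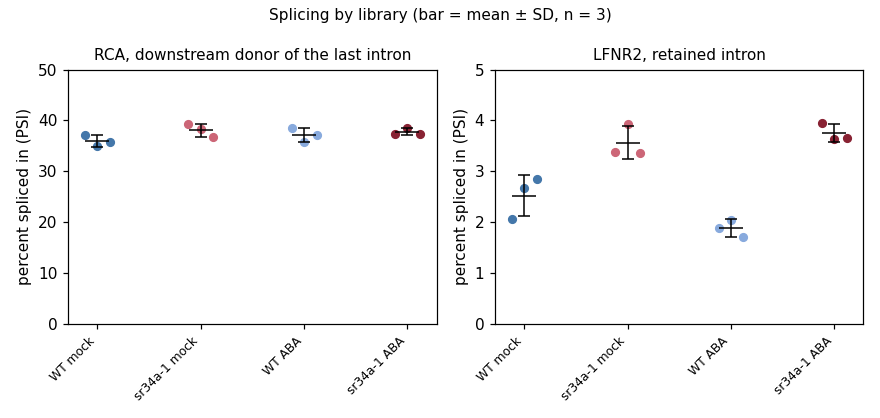
Percent spliced in (y axis, from 0) in the 3 libraries of each group (x axis), with mean and SD, for the downstream donor of the last RCA intron (left) and the 117-base LFNR2 intron (right). RCA lies between 34.9 and 39.2 in all 12 libraries; LFNR2 is higher in every sr34a-1 library than in every WT library of its treatment.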

How the data were processed

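RNA was sequenced from 12 libraries in 4 groups of 3, taken with their replicate numbers from the sample titles. The deposited gene table holds whole-number counts, which the authors did not normalize, and cRPKM, an RPKM value the authors scaled to gene length and library depth, per the file headers. Splicing is deposited as the authors' percent spliced in per event, beside a quality field from which the inclusion and exclusion read counts were taken. The build is TAIR 10, per the submitters' processing notes. The aligner, the counter and the strand setting are not given in the sources used here. All sample columns matched a sample by name.

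Counts were tested with edgeR 4.0.16 in R 4.3.3 (quasi-likelihood, TMM factors 0.976 to 1.025, default low-count filter, 1 mean per group over 12 libraries), with Benjamini-Hochberg adjustment over 21256 genes at 0.05. Percentages of WT and fold changes are from that fit. Splicing was tested with limma 3.58.1 on log2((inclusion + 0.5)/(exclusion + 0.5)) for 27995 events with at least 10 reads in each library and a mean PSI from 2 to 98. Both scripts were tested on simulated data. DESeq2 1.42.0, limma on log2(cRPKM + 1) or log2(cRPKM + 0.1), other scalings and filters, a replicate block and leaving out each library were alternatives. Same-numbered libraries of the genotypes deviated together (r 0.267 to 0.569 under mock, 0.198 to 0.350 with ABA), so the numbers were taken to pair them. WT mock 2 was an exception, as another sr34a-1 mock library matched it better. The pairing entered only the replicate block. Standard errors and adjusted p-values are from fits without it unless the block is named. Between the mock and ABA libraries of a genotype, replicates 1 and 2 matched best by number and replicate 3 did not.

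Positions, gene starts and sequences are from RefSeq TAIR10.1, in which 99.83% of 115163 introns of the splicing table begin with GT or GC and end with AG. Values in every library are given for the most abundant gene of each class, the largest called rise and fall of each comparison, the smallest interaction p and RCA. The members, the lists and the tests were chosen with earlier results of these data known.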

Additional observations from a re-analysis of the deposited data

How the results depend on the processing

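The genotype results held under the alternatives tried. Falls in sr34a-1 under mock numbered 51 to 52 when 1 library was left out and 51 to 53 otherwise, with medians from −0.74 to −0.56 on the log2 scale. With ABA they numbered 51 to 53 and 52 to 53, with medians from −0.78 to −0.62, and no called value changed sign. LHCB7, not called, went from 0.05 to −0.01 under mock without WT mock 3. LHCA6 under mock lost its call in 10 alternatives (adjusted p 0.0515 to 0.18), and LHCB4.3 with ABA in 5 (0.0596 to 0.169), by edgeR or limma. The replicate block changed no other genotype call than that of LHCB4.3.

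The ABA counts were not stable, and the cause was not tested. In WT, 1 gene rose in the main result, 0 with library totals alone or with limma at either added value, 2 with a replicate block, and 0 to 1 with 1 library left out. Falls in WT numbered 2, against 9 with a replicate block, 13 without both first mock libraries, and 2 to 6 with 1 library left out. In sr34a-1, 1 rose, against 0 with library totals, a CPM of at least 1 in 3 libraries, limma at either value, the 6 libraries compared alone or without both first mock libraries, and 0 to 1 with 1 left out. Falls numbered 7, against 4 with RLE factors, 20 with a replicate block, 30 without both first mock libraries, and 2 to 19 with 1 left out. The block here rests on replicate numbers that pair mock with ABA libraries only in part (r 0.068 to 0.402 in WT and −0.013 to 0.274 in sr34a-1). Libraries 1 and 2 matched best by number in both genotypes, and library 3 did not.

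Splicing calls between genotypes numbered 0 under mock and 1 with ABA (0 to 1 with 1 library left out). Without the PSI filter they were 1 and 7, because events with a PSI that rounds to 0 or 100 in every group, in LHCB2.2 and LHCB3, then entered. No setting moved the median of all genes by more than 0.06.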
